A study of Mus musculus with 6 samples.

Results

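Voltage-gated sodium channel subunit genes were followed in proprioceptive sensory neurons, which signal the stretch and tension of muscles to the central nervous system. The set held 8 genes of the 36814 listed in the deposited table, chosen by symbol: the alpha subunits Scn1a, Scn2a1, Scn3a, Scn8a and Scn9a and the beta subunits Scn2b, Scn3b and Scn4b. Each symbol matched 1 row of the table. RNA came from 6 mouse pools, 3 of neurons supplying the tibialis anterior (TA, an ankle flexor) and 3 of neurons supplying the gastrocnemius (GS, an ankle extensor). Both groups came from a Pv::YFP line, in which the parvalbumin gene drives a yellow fluorescent protein. The muscle was injected with the tracer ctb-555 (labelled cholera toxin B) at postnatal day 0, and at postnatal day 1 neurons with the label were collected manually into pools of 25 to 30 cells. The groups differed in the muscle injected. The strain, the sex and how many animals gave each pool are unknown here, as no label states them, and p-values measure only the spread between these pools.

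A voltage-gated sodium channel is built around 1 large alpha subunit, which forms the pore, senses voltage and closes again within milliseconds through an intracellular inactivation gate. Beta subunits are small single-pass membrane proteins with an immunoglobulin-like domain that bind the alpha subunit and change its gating and its placement in the membrane. In sensory neurons these channels start and carry the action potential from the muscle to the spinal cord. Scn1a, Scn2a1 (now named Scn2a), Scn3a, Scn8a and Scn9a encode Nav1.1, Nav1.2, Nav1.3, Nav1.6 and Nav1.7, which are all blocked by tetrodotoxin.

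The 5 alpha genes are close relatives, which bears on how well reads could tell them apart. In GENCODE M21 transcripts (GRCm38), aligned coding identity ran from 74.0% for Scn8a and Scn9a to 84.2% for Scn2a1 and Scn3a. Of all windows of 50 bases along a transcript, 5.48% of those of Scn1a, 7.58% of Scn2a1, 8.53% of Scn3a, 5.36% of Scn9a and 0.0527% of Scn8a occurred exactly in another sodium channel gene. No such window was shared by Scn2b, Scn3b or Scn4b, whose coding identities were 61.4% to 62.5%. The read length and the treatment of reads with several matches are nowhere stated in the labels or headers, so how reads from shared stretches of the 4 alpha genes were divided is uncertain.

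The genes lie in clusters. In the mm9 coordinates of the deposited table, Scn3a (65295175 to 65405684, minus strand), Scn2a1 (65458914 to 65605504, plus), Scn1a (66108838 to 66278897, minus) and Scn9a (66318137 to 66473009, minus) sit on chromosome 2, followed after 38.5 kb by Scn7a. Scn2b (44925959 to 44938153, plus) and Scn4b (44946520 to 44962235, plus) are 8.37 kb apart on chromosome 9, which also holds Scn3b (40076801 to 40099203, plus). Scn8a is on chromosome 15 (100785829 to 100876360, plus). Gm13629, a model on the strand opposite Scn9a, had 4.30 to 9.24 RPKM, and the other models that overlap a member had at most 0.258 RPKM. Whether counting used strand is not given, so reads of Gm13629 and Scn9a cannot be told apart where the 2 genes overlap.

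Depth varied across libraries, with 7038296 to 21125960 net reads on genes, of which 0.272% to 0.322% fell on the 8 members. The 12 markers of large sensory neurons summed to between 6732 and 9822 RPKM (reads scaled to gene length and to library size), most of it from the neurofilament genes Nefl and Nefm. Without Nefl and Nefm, a choice made after the values were seen, the other 10 summed to 659 to 778 RPKM. Most of that came from Etv1 (202 to 323 RPKM) and Nefh (261 to 315 RPKM). Lists of another cell type, of 5 to 8 genes with sodium channel genes left out, reached at most 434 RPKM. Sums over lists of unlike size and abundance do not measure purity. Of these 12 markers, 11 were tested and 1 was called, against 0.305% of all genes tested. It was Spp1, which encodes osteopontin (limma adjusted p of 0.0150). Spp1 had 2.78 to 6.97 RPKM in the TA pools and 38.5 to 72.0 in the GS pools. Pvalb, which encodes parvalbumin and drives the reporter, went the other way without being called, with 47.8 to 93.5 RPKM in the TA pools and 4.26 to 31.3 in the GS pools (limma adjusted p of 0.168). Etv1 lay wholly higher in GS and was not called either. Whrn lay wholly higher in TA, at 1.10 to 4.97 RPKM against 0.0414 to 0.629 in the GS pools, and was not called. TA replicate 3 stood apart in skeletal muscle markers (291 RPKM over 7 genes, against 0.0415 to 5.12 in the other 5 libraries). It was also highest in connective tissue markers (34.5 RPKM, at most 6.26 in the others) and blood markers (27.0 RPKM, at most 4.88). This library also had the most net reads. GS replicate 2 was highest in nociceptor markers (434 RPKM over 7 genes, 167 to 403 in the others). Of the nociceptor list, Prph, which large neurons can also express, gave 128 to 323 RPKM, Calca 0 to 133 and Tac1 0 to 31.7. P2rx3 had 3.39 to 5.002 RPKM in the TA pools and 8.996 to 22.8 in the GS pools, without overlap and not called (limma adjusted p of 0.205). Trpv1 was listed at 0 in 4 of 6 libraries and Mrgprd in all 6. The part of these markers in the results below was not tested.

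Alpha subunits came first. Scn9a, best known from nociceptors, where it amplifies small depolarizations, had the highest level of the 8 members in each of the 6 libraries. Replicates 1, 2 and 3 of TA had 49.7, 58.5 and 73.5 RPKM, and those of GS had 57.2, 77.7 and 48.9 RPKM, the order in which the libraries are given throughout. The groups overlapped almost entirely, with means of 60.6 ± 12.0 RPKM in the TA pools and 61.3 ± 14.9 RPKM in the GS pools (SD, n = 3). The mean over all libraries exceeded that of 96.5% of the genes tested. In a bulk pool, fewer cells of a type and less RNA per cell cannot be told apart, which holds for each level given here. Scn10a and Scn11a, the sodium channel genes most typical of nociceptors, were far lower: Scn10a at 1.54, 0.608 and 0.00476 RPKM in the TA pools and 3.85, 1.01 and 0 in GS, and Scn11a at 0.286 to 0.572 RPKM in the TA pools and 0.565 to 3.12 in GS. The libraries with the highest Scn10a (GS replicate 1) and Scn11a (GS replicate 2) were not the same.

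Scn1a, which encodes a channel of fast-firing neurons, was the second alpha gene. Its values were 37.5, 38.5 and 33.2 RPKM in the TA pools and 20.5, 25.8 and 48.6 RPKM in the GS pools. The 3 TA pools lay close together, inside the range of the GS pools, of which replicate 3 was the highest and replicate 1 the lowest of all 6. The coefficient of variation was 7.77% in TA and 47.3% in GS, while counting alone (3780 to 12129 net reads per library) gives an error of 0.908% to 1.63%. That counting error assumes independent reads, and reads of amplified cDNA need not be.

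Scn8a, the main channel of mature nodes of Ranvier and axon initial segments, had the smallest spread of the members. It was at 24.1, 20.9 and 18.3 RPKM in the TA pools and 20.6, 21.7 and 17.0 RPKM in the GS pools, and the groups overlapped. Its coefficient of variation over the 6 libraries was 12.3%, against 19.9% to 35.5% for the other 7 members.

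Scn2a1, whose channel is found in unmyelinated and developing axons, was at 11.6, 9.72 and 11.7 RPKM in the TA pools and 6.31, 10.3 and 8.49 RPKM in the GS pools. TA replicates 1 and 3 lay above every GS pool, and TA replicate 2 lay below GS replicate 2. Scn3a, whose channel is prominent in embryonic and newborn neurons and declines later, was the lowest of the 5. It was at 3.88, 2.44 and 3.95 RPKM in the TA pools and 4.49, 2.11 and 5.09 RPKM in the GS pools, with the lowest value of each group in replicate 2.

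Among beta subunits, Scn3b, which associates with alpha subunits without a covalent bond, was the highest. It was at 41.9, 21.9 and 62.4 RPKM in the TA pools and 33.6, 31.2 and 44.3 RPKM in the GS pools. The TA pools held both the lowest and the highest value, the highest in TA replicate 3, the library with the muscle markers. Scn4b, which is bound to alpha subunits by a disulfide bridge and is tied to resurgent sodium current, was at 13.6, 7.43 and 10.1 RPKM in the TA pools and 9.60, 4.52 and 10.2 RPKM in the GS pools. Scn2b, the other disulfide-linked beta subunit, was at 9.22, 6.16 and 8.59 RPKM in the TA pools and 8.74, 7.92 and 4.59 RPKM in the GS pools. In both genes the ranges of TA and GS overlapped.

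**Figure D1:**
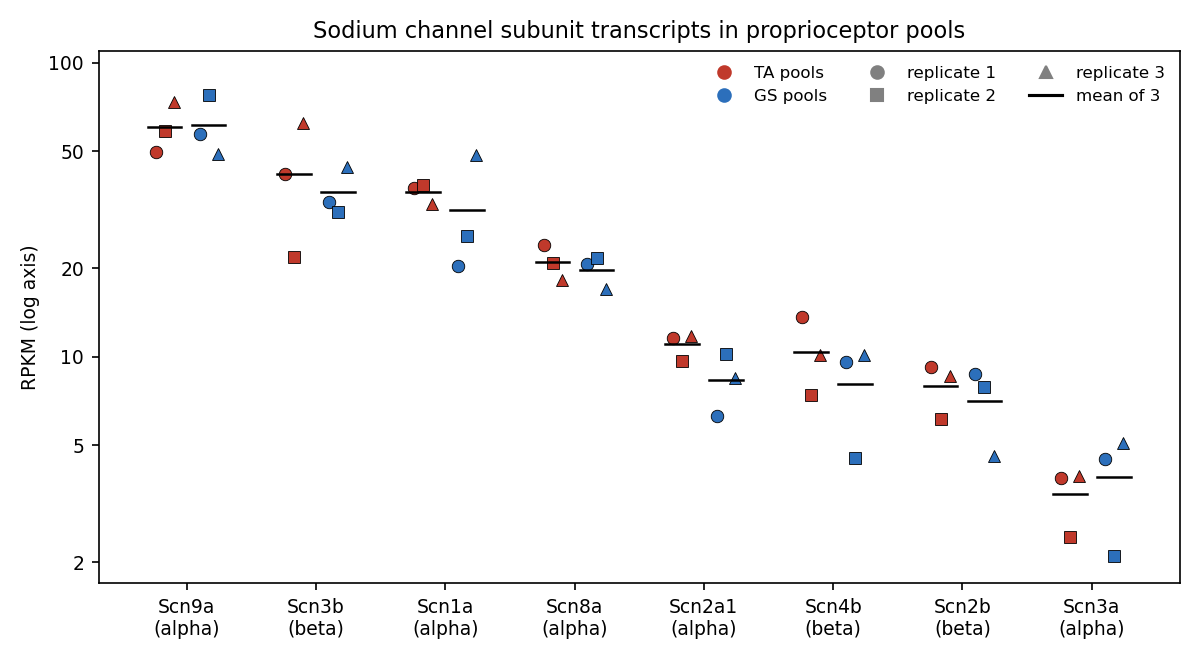
RPKM of the 8 sodium channel subunit genes (log axis) in each library, ordered by the mean over all libraries; red symbols are TA pools, blue symbols GS pools, shapes are replicates and bars are means of 3. Scn9a is highest and Scn3a lowest by mean, and the TA and GS symbols overlap in all 8 genes.

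RPKM divides reads by gene length, so setting genes side by side assumes right lengths and even coverage, which was not checked. By mean RPKM the order was Scn9a (60.9 ± 12.1, SD over 6 libraries), Scn3b (39.2 ± 13.9), Scn1a (34.0 ± 9.98) and Scn8a (20.4 ± 2.51). Scn2a1 (9.69 ± 2.06), Scn4b (9.25 ± 3.05), Scn2b (7.54 ± 1.79) and Scn3a (3.66 ± 1.16) followed. Not every step of this order exceeded the spread. Scn9a lay above Scn3b, and Scn8a above Scn2a1, in 6 of 6 libraries, with mean log2 ratios of 0.69 ± 0.57 and 1.10 ± 0.34 (SD). Scn1a lay above Scn8a, and Scn2b above Scn3a, in 5 of 6, with mean log2 ratios of 0.69 ± 0.54 and 1.07 ± 0.68. Scn3b and Scn1a (0.19 ± 0.62, in order in 4 of 6), Scn2a1 and Scn4b (0.11 ± 0.63, in order in 3 of 6) and Scn4b and Scn2b (0.26 ± 0.64, in order in 5 of 6) did not differ beyond their spread. Gene lengths are those of the deposited table, 4562 to 4940 bases for the beta genes and 9262 to 12579 bases for the alpha genes. The GENCODE transcripts used above had other lengths: 8386 bases for Scn1a against 11079, 4150 for Scn3b against 4606, and 11436 for Scn8a against 11066. The shares and sums below rest on the same gene lengths.

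The make-up of the alpha pool moved mainly between Scn9a and Scn1a. Scn9a made up 45.5% ± 6.54 of the summed alpha RPKM in the TA pools and 49.0% ± 9.63 in GS (SD, n = 3), and Scn1a 27.6% ± 3.47 and 25.1% ± 11.1. The ratio of Scn9a to Scn1a was 1.32, 1.52 and 2.21 in TA and 2.79, 3.02 and 1.01 in GS. It was lowest in GS replicate 3, where both genes were nearly level, so the GS pools spanned the TA pools. Scn8a contributed 16.0% ± 2.99 in TA and 16.0% ± 2.83 in GS, Scn2a1 8.33% ± 0.853 and 6.63% ± 0.837, and Scn3a 2.58% ± 0.625 and 3.21% ± 1.45.

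Within the beta pool, Scn3b made up between 61.7% and 76.9% of the summed RPKM of the 3 members in each library. Scn2b and Scn4b shared the rest, at 14.2% ± 4.17 and 16.8% ± 4.43 over the 6 libraries. The summed alpha level ran from 109 to 141 RPKM and the summed beta level from 35.4 to 81.1 RPKM. Alpha exceeded beta 1.73-fold to 3.67-fold, least in TA replicate 3 and most in TA replicate 2, so the extremes of this ratio both lay in the TA group.

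**Figure D2:**
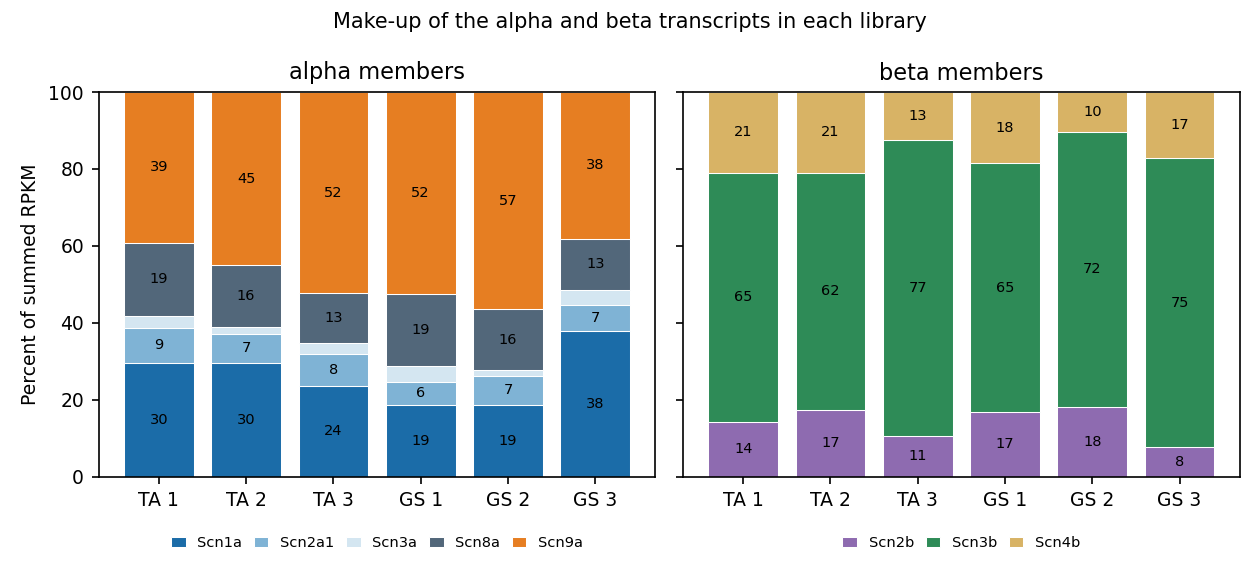
Percent of the summed RPKM of the 5 alpha members (left) and the 3 beta members (right) given by each gene, one bar per library. Scn9a makes up 38.2% to 56.5% of the alpha sum and Scn3b is the largest beta share in each of the 6 bars.

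Across the 6 libraries the members did not rise and fall together. As a description over points that share depth and scaling, Pearson's r of log2(RPKM + 1) was above 0 in 17 of the 28 pairs of members, with a median of 0.14. The highest was 0.80 for Scn3a and Scn4b and the lowest was -0.70 for Scn9a and Scn4b. The genes most like Scn9a among 3075 others that averaged at least 10 RPKM were Clns1a (r = 0.997) and Uqcrc2 (0.990). Those most like Scn3b were Sh3glb1 (0.981) and Gm9755 (0.979), and those most like Scn1a were Irf2bp2 (0.997) and Mdga1 (0.993). An r above 0.95 was reached by 14 of the 3075 genes for Scn9a, 7 for Scn3b and 9 for Scn1a. The named genes are the highest of that search, and these values over 6 libraries are a description, with no test.

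The comparison of TA with GS asked whether the muscle supplied goes with a difference in sodium channel transcripts. It used limma on log2(RPKM + 1) over the 10828 genes whose RPKM averaged at least 1, and a gene was called at a Benjamini-Hochberg adjusted p under 0.05. All 8 members passed the filter, and 0 were called in either direction, also at an unadjusted p under 0.05. Over all genes tested 0.305% were called, 0.175% as higher in TA and 0.129% as higher in GS, and 10.4% had an unadjusted p under 0.05, so 0 of 8 is close to the background. Pools of TA and GS without overlap were found in 0 of 8 members and in 16.6% of all genes tested.

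The differences were small and their intervals wide. The log2 fold changes (TA minus GS) were largest for Scn2a1, at 0.38 ± 0.37 (SE, 95% interval -0.43 to 1.19, limma adjusted p of 0.757), and for Scn4b, at 0.36 ± 0.43 (-0.59 to 1.30, 0.802). Scn1a was at 0.29 ± 0.37 (-0.53 to 1.11, 0.817). This order rested on single libraries: Scn4b was at 0.031 without GS replicate 2, and Scn1a at 0.035 without GS replicate 1 and at 0.64 without GS replicate 3. Scn9a was nearest to 0, at -0.01 ± 0.31 (-0.70 to 0.69, 0.994), and Scn8a was at 0.09 ± 0.33 (-0.63 to 0.81). Scn2b, Scn3b and Scn3a were at 0.18, 0.10 and -0.11, with adjusted p-values of 0.903 to 0.953. On the scale of RPKM + 1, the intervals reached a 2.46-fold higher level in TA (Scn4b) and a 2.14-fold higher level in GS (Scn3a). Differences of up to these sizes are within the intervals that 3 pools against 3 gave.

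The median log2 fold change of the members was 0.14, against 0.24 for all genes tested, so relative to all genes it was -0.10. Values above 0 were held by 6 of 8 members and by 66% of all genes tested, and after each library was centred on its median Scn8a, Scn2b and Scn3b also lay below 0. The authors' deposited tables held 395 genes for TA and 334 for GS, against 36814 genes with listed levels. None of the 8 members was in either, so 0 of 8 is close to this background. Without TA replicate 3 and GS replicate 2, chosen after the data were seen, the count of called members was also 0.

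**Figure D3:**
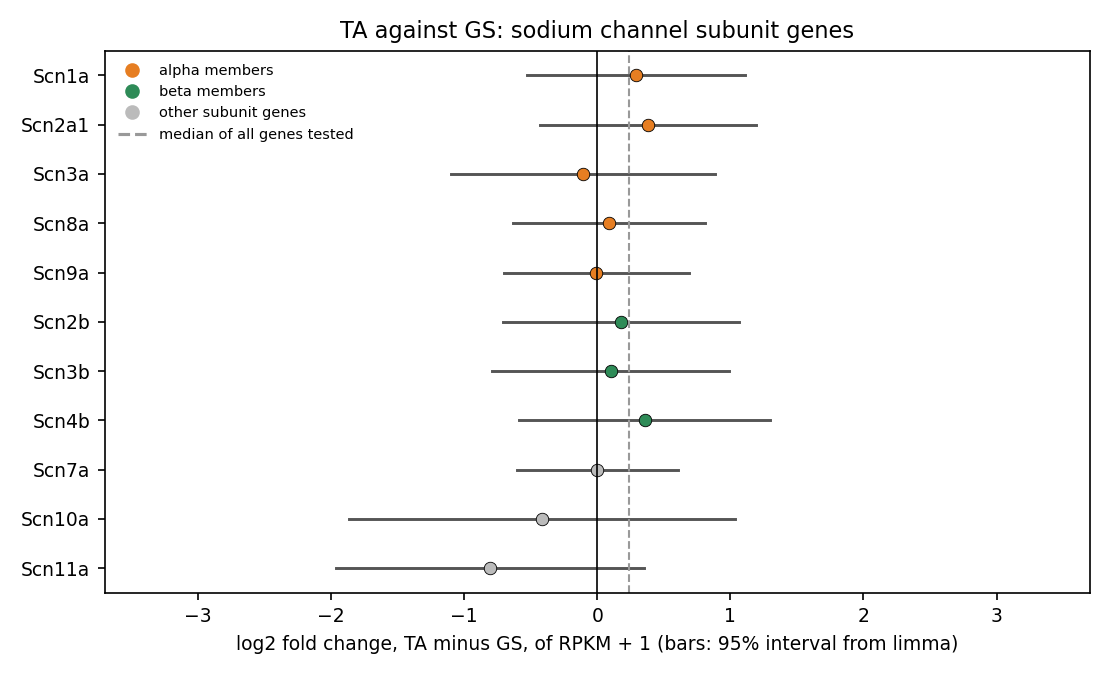
Log2 fold change of RPKM + 1, TA minus GS, for the 8 members (orange alpha, green beta) and 3 other subunit genes that passed the filter (grey); lines are 95% intervals from limma and the dashed line is the median of all genes tested (0.24). The intervals of all 8 members cross 0.

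Other sodium channel genes were outside the set. Scn7a, which encodes Nax, a relative that responds to sodium concentration rather than voltage and is known from glia and sensory neurons, was at 67.5, 75.3 and 73.7 RPKM in the TA pools and 67.0, 81.2 and 68.6 RPKM in the GS pools. That is the most even and the highest level of the sodium channel subunit genes given here, with a coefficient of variation of 7.72%. The 8 other glial markers together summed to 133 to 194 RPKM in the TA pools and 90.2 to 179 in GS, and Sox10, Mbp and Erbb3, defining glial genes among them, each had at most 2.82 RPKM in any library. The part of glial RNA in Scn7a was not tested.

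Scn4a, the channel gene of skeletal muscle, had at most 0.0464 RPKM in any library and did not pass the filter.

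Genes whose products bind, anchor, modify or accompany the channels formed 5 lists of 34 genes, of which 32 were tested and 0 called. At an unadjusted p under 0.05 there were 3, against 10.4% of all genes. The median log2 fold change was 0.15, against 0.24 for all genes tested. Only TA lay wholly above GS where these genes did not overlap, which held for 4 of the 32, against 13.1% of all genes for TA above GS and 3.48% for GS above TA.

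Of the fibroblast growth factor homologous factors, which bind the tail of the alpha subunit, 0 of 4 were called. Fgf13 was the most abundant, at 73.3 ± 5.19 RPKM in the TA pools and 67.2 ± 6.20 RPKM in the GS pools. Fgf11 was at 24.3, 21.2 and 10.1 RPKM in the TA pools and 57.4, 37.8 and 21.2 RPKM in the GS pools, and the log2 fold change was -1.004 ± 0.45 (limma adjusted p of 0.478). TA replicate 1 lay above GS replicate 3. The log2 fold change of Fgf11 was -0.64 without TA replicate 3 and -0.67 without GS replicate 1.

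Of the genes of anchoring at nodes and initial segments, 0 of 10 tested were called, Gldn lying below the filter. Sptan1, a spectrin, was at 108, 88.7 and 122 RPKM in the TA pools and 72.3, 79.7 and 80.4 RPKM in the GS pools, and did not overlap (log2 fold change of 0.44 ± 0.27, adjusted p of 0.620). Cntn2, an axonal adhesion molecule of the region beside the node, was at 15.3, 13.7 and 18.8 RPKM in the TA pools and 9.14, 0.946 and 13.5 RPKM in the GS pools (1.35 ± 0.65, 0.517), also without overlap. The gap of Cntn2 rested largely on GS replicate 2, without which its log2 fold change was 0.47. Gldn, encoding the node protein gliomedin, was the 1 partner gene found in the authors' deposited table for GS, with a deposited p of 0.0226 and a deposited adjusted p of 0.714.

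Of 10 genes of turnover and modification, 0 were called. Bace1, a protease that cleaves beta subunits, was at 31.4, 24.3 and 34.1 RPKM in the TA pools and 13.9, 18.2 and 25.0 RPKM in the GS pools (limma adjusted p of 0.560). Ptprz1, a receptor phosphatase, was at 9.98 ± 0.413 RPKM in the TA pools and 7.36 ± 3.71 RPKM in the GS pools.

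The sodium leak channel complex, and the sodium-calcium exchangers with the sodium-activated potassium channels, made up lists of 4 tested genes each, with 0 called in either. Unc80, a large subunit of the leak channel complex, was at 14.5, 13.0 and 17.7 RPKM in the TA pools and 7.53, 7.70 and 7.29 RPKM in the GS pools. The groups did not overlap, and the log2 fold change was 0.91 ± 0.35 with a limma adjusted p of 0.420. Nalcn, the pore of the leak channel, was at 4.07, 6.49 and 9.90 RPKM in the TA pools and 2.96, 1.88 and 4.59 RPKM in the GS pools, so the groups overlapped (0.90 ± 0.46, 0.540). Slc8a1, a sodium-calcium exchanger of the plasma membrane, was at 5.02, 6.19 and 5.25 RPKM in the TA pools and 0.801, 0.116 and 1.76 RPKM in the GS pools, which did not overlap. Its log2 fold change of 1.87 ± 0.48 had an unadjusted p of 0.00258 and a limma adjusted p of 0.216. Slc8a3, a related exchanger, was at 12.8, 5.38 and 18.5 RPKM in the TA pools and 0.910, 0.689 and 14.8 RPKM in the GS pools, where GS replicate 3 lay among the TA pools.

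**Figure D4:**
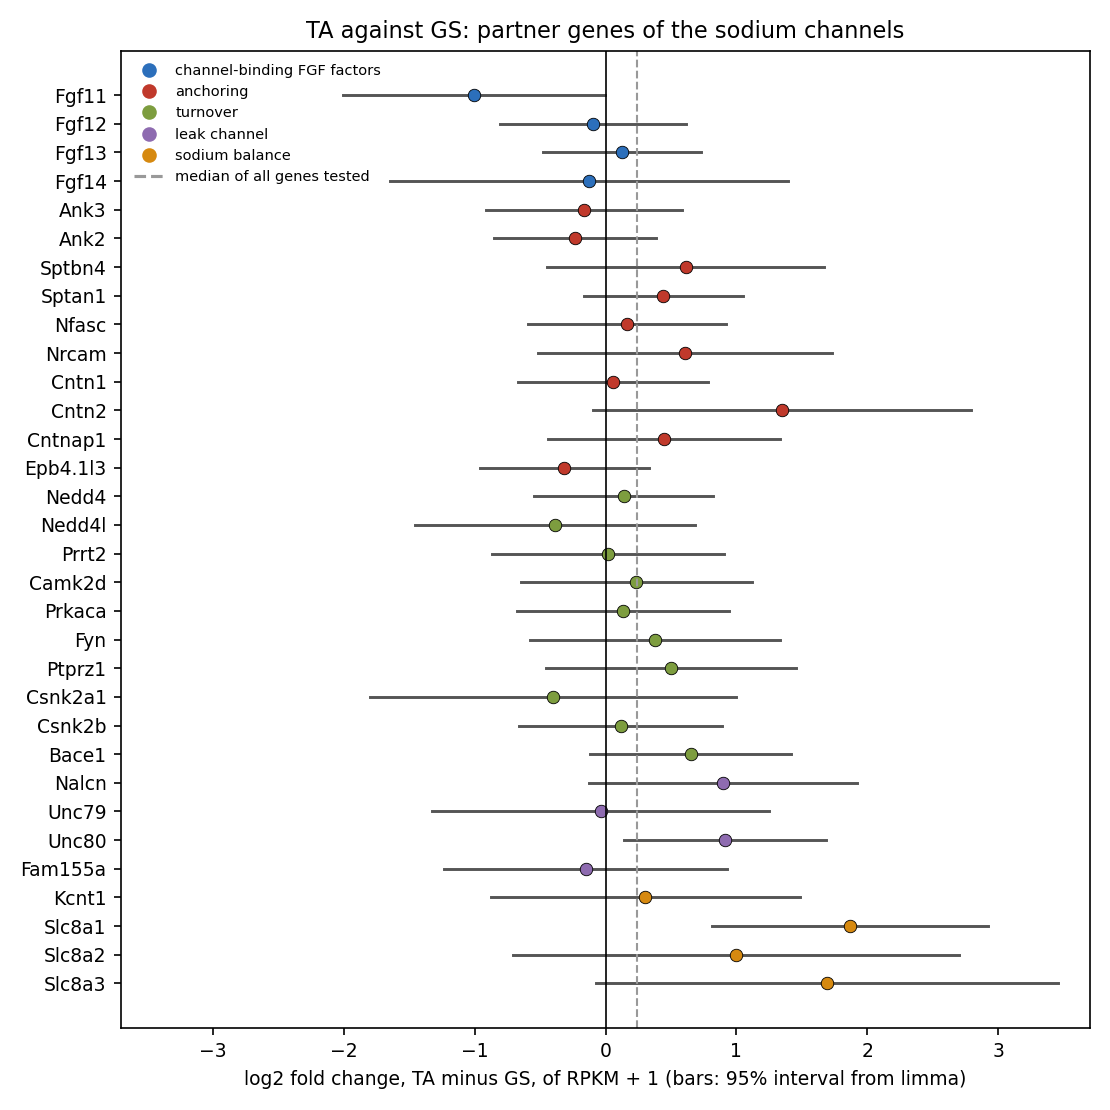
Log2 fold change of RPKM + 1, TA minus GS, for the 32 partner genes tested, coloured by list; lines are 95% intervals from limma and the dashed line is the median of all genes tested. Slc8a1 lies farthest towards TA, at 1.87, and Fgf11 farthest towards GS, at -1.004.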

How the data were processed

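Tools listed in the submitters' processing notes are Bowtie (0.12.9) and DESeq (version not listed), and the build is mm9. No source says how reads were assigned to genes. For each gene and library the deposited table holds reads and RPKM, treated here as a score because 683 genes have values below 0 in at least 1 library. No member had one. The planned design kept count models for plain counts, so limma 3.58.1 (R 4.3.3) was fitted to log2(RPKM + 1) with a group term and a variance trend, leaving out those 683 genes and keeping, per symbol, the row with the highest mean. The authors' deposited lists give a p-value and adjusted p-value per gene, used only to look up members. Sptbn4 and Sptan1 were matched by identifier.

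Members and lists were chosen with earlier results of these data known. Named genes were the members, other subunit genes, and per partner list the 2 with the smallest unadjusted p. Alternatives were pseudocounts of 0.5 and 0.1, no filter, a mean RPKM of at least 5, other scalings, no trend, a replicate block and leaving out libraries. The fit was tested on simulated data. Transcripts are from GENCODE M21 (GRCm38), and no coordinates were converted between builds. Some genes and sequences are not reported here.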

Additional observations from a re-analysis of the deposited data

How the results depend on the processing

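The count of called members and of called partner genes was 0 in both directions under every alternative for which it was taken. With all rows of a symbol summed, only the members' estimates were looked at and no count was taken. Of 135 values of the members' log2 fold changes under alternatives, 116 kept their direction and 19 turned it, with 0 past the threshold and a smallest adjusted p of 0.441. Changing the filter, dropping the trend, blocking on replicate or summing rows of a symbol left each estimate at its main value. Direction could not turn under those settings, which are counted among the 116. Centring on the median gave -0.12 for Scn8a, -0.031 for Scn2b, -0.11 for Scn3b, -0.21 for Scn7a and -0.081 for Fgf13. Quantile normalization gave -0.017 for Scn8a, -0.028 for Scn3b and -0.093 for Scn7a, and rescaling to net reads on genes -0.028, -0.020 and -0.12 for the same 3 genes. Leaving out 1 library gave 0.035 to 0.64 for Scn1a, 0.21 to 0.53 for Scn2a1, 0.031 to 0.56 for Scn4b, -0.41 to 0.080 for Scn3a, -0.012 to 0.18 for Scn8a, -0.15 to 0.18 for Scn9a, -0.069 to 0.33 for Scn2b, -0.24 to 0.50 for Scn3b (lowest without TA replicate 3) and -0.050 to 0.087 for Scn7a. Without TA replicate 3 and GS replicate 2 together Scn9a was at 0.029 and Scn3b at -0.34.

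Over all genes tested, 19 were called higher in TA and 14 in GS. These counts became 7 and 6 with a pseudocount of 0.1, 9 and 8 with a mean RPKM of at least 5, and 0 and 0 with no filter (18604 genes tested by limma, of which 1251 and 250 had an unadjusted p under 0.05). Centring gave 11 higher in TA and 17 in GS, quantile normalization 16 and 19, and rescaling to net reads 11 and 14, so under each of these 3 scalings the larger count moved from TA to GS. Leaving out 1 library gave 1 to 19 and 1 to 10, and leaving out TA replicate 3 and GS replicate 2 gave 1 and 0 (721 and 201 at an unadjusted p under 0.05). The causes were not tested. With the replicate number as a block the counts were 8 and 8. Deviations of same-numbered TA and GS libraries from their group means had correlations of -0.07, -0.02 and -0.14, and other combinations reached 0.13. Deviations from a mean of 3 constrain one another, so these values cannot settle whether the numbers mark pairs. The main fit did not pair them. Each member had at least 354 net reads per library, and the number of RNA molecules behind those reads is not known.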
